A study of Mus musculus with 6 samples.

Results

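Transcripts of 45 genes of the cell cycle were followed in primary brown adipocytes, fat cells that were grown from precursors of interscapular brown adipose tissue (BAT) and differentiated in the dish. The genes were taken from a list of symbols by role, with no threshold on their values, and all 45 were found among the 22466 genes with a RefSeq transcript. They comprise 12 genes of S phase and DNA replication, 3 regulators of the passage from G1 into S phase (G1/S), 25 genes of G2 and mitosis, 3 D-type cyclins and 2 inhibitors of cyclin-dependent kinases (CDK). The study compared brown adipocytes grown from WT mice with those from Ucp1-KO mice, 3 cultures each, for differences in the transcriptome. Ucp1 encodes uncoupling protein 1, the protein by which brown fat makes heat.

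All 6 cultures came from mice of the strain that the labels give as 129SvEvS1 and the study's methods by another spelling, and by the study's methods from young males. The WT cultures (replicates 10, 11 and 12) carried the wildtype genotype and the Ucp1-KO cultures (replicates 13, 14 and 15) the genotype UCP1(-/-). None of the cultures received a further treatment by the labels, and all went through the same induction and differentiation with a cocktail that held insulin, T3 and rosiglitazone. The model has limits. A dish of differentiated precursors may hold other cells of the tissue, the knockout still makes a remnant Ucp1 transcript, and no label says whether a culture came from 1 or several mice.

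Division of a mammalian cell begins in G1, where D-type cyclins with their kinases inactivate the retinoblastoma protein and free the E2F factors. These switch on the genes for DNA replication, and a later wave of transcription supplies the kinases, motors and kinetochore proteins of mitosis. Fat cell precursors leave the cycle as they differentiate, and CDK inhibitors such as p21 and p18 hold it closed.

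Abundance is given in RPKM, the reads per kilobase of transcript, scaled to the mapped reads of the culture, so that levels can be compared between genes. For a gene with several RefSeq transcripts, which applied to 11 of the 45, the most abundant was used. Between 14989604 and 17727653 reads lay behind the values of a culture, and on a transcript of 2000 bases 3 reads were worth between 0.0846 and 0.10 RPKM. Genotypes were compared with limma on log2(RPKM + 1) over the 16865 RefSeq transcripts that averaged 0.5 RPKM or more, with p-values adjusted by the Benjamini-Hochberg method over all of them. A positive log2 fold change means more transcript in Ucp1-KO. Since 1 RPKM is added, these fold changes understate the change of rare transcripts. For some genes the ratio of the mean RPKM is given as well.

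The deleted gene itself was at 1775, 981 and 1157 RPKM in the WT cultures and at 307, 409 and 398 RPKM in the Ucp1-KO cultures, 28.4% of the WT mean, with no overlap of the genotypes. Beside the cell type on the labels, 8 genes listed as brown adipocyte markers were looked at. None was at 0, and they summed to between 30435 and 33799 RPKM. Fabp4 alone was at 26399 to 29312 RPKM, so the sums mostly follow this gene and do not test the brown type. Ucp1-KO replicate 13 stood apart from the other cultures in the cell cycle genes, as described below, and the fold changes of genes and the medians and sums over lists below are therefore given with and without it. Its depth was 16150084 reads, against 17236667 and 14989604 reads in the other Ucp1-KO cultures, and the part of depth was not tested. In these bulk samples, fewer dividing cells and less RNA per dividing cell cannot be told apart.

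The 2 CDK inhibitors and the D-type cyclins Ccnd2 and Ccnd3 were the most abundant of the 45 genes in the differentiated cultures, and the other 41 averaged less than each of these 4. Over the 6 cultures, Cdkn1a, which encodes the CDK inhibitor p21, averaged 114 RPKM and lay above 96.7% of the transcripts tested. Cdkn2c, encoding the inhibitor p18 of CDK4 and CDK6, averaged 57.3 RPKM, and the cyclin genes Ccnd2 and Ccnd3 averaged 48.1 and 32.6 RPKM. Among the S-phase genes, Rrm1, the large subunit of ribonucleotide reductase, was the most abundant with 18.7 RPKM, followed by Pcna, the sliding clamp of DNA polymerases, with 8.50 RPKM. The entry regulators Ccne1, Ccnd1, E2f1 and Ccne2 averaged 7.45, 7.27, 4.15 and 2.78 RPKM. The 25 mitotic genes averaged between 0.686 RPKM for Ccnb1 and 6.70 RPKM for Ccna2, and lay above 3.74% and 47.1% of the transcripts tested. The replication licensing factor Cdc6 was the rarest of the 45, with 5 to 32 reads per culture and a mean of 0.244 RPKM, and fell under the minimum of the test, so that 44 genes were tested. The least counted of these 44 had 15 reads in its lowest culture, and 0 of the 44 passed the minimum only through Ucp1-KO replicate 13.

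The 45 genes together summed to 390, 357 and 339 RPKM in the WT cultures and to 536, 409 and 355 RPKM in the Ucp1-KO cultures. These sums were 0.0876% to 0.150% of all reads. The WT mean was 362 ± 25.9 RPKM and the Ucp1-KO mean 433 ± 93.0 RPKM (SD, n = 3 each), a ratio of 1.2 that fell to 1.06 without Ucp1-KO replicate 13. The genotypes overlapped, since Ucp1-KO replicate 15 lay below WT replicates 10 and 11. D-type cyclins and CDK inhibitors made up most of each sum. Without these 5 genes the sums were 133, 111 and 92.4 RPKM in WT and 246, 133 and 112 RPKM in Ucp1-KO, so that Ucp1-KO replicate 13 lay at 2.19 times the WT mean and the other 2 Ucp1-KO cultures together at 1.09 times.

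**Figure D1:**
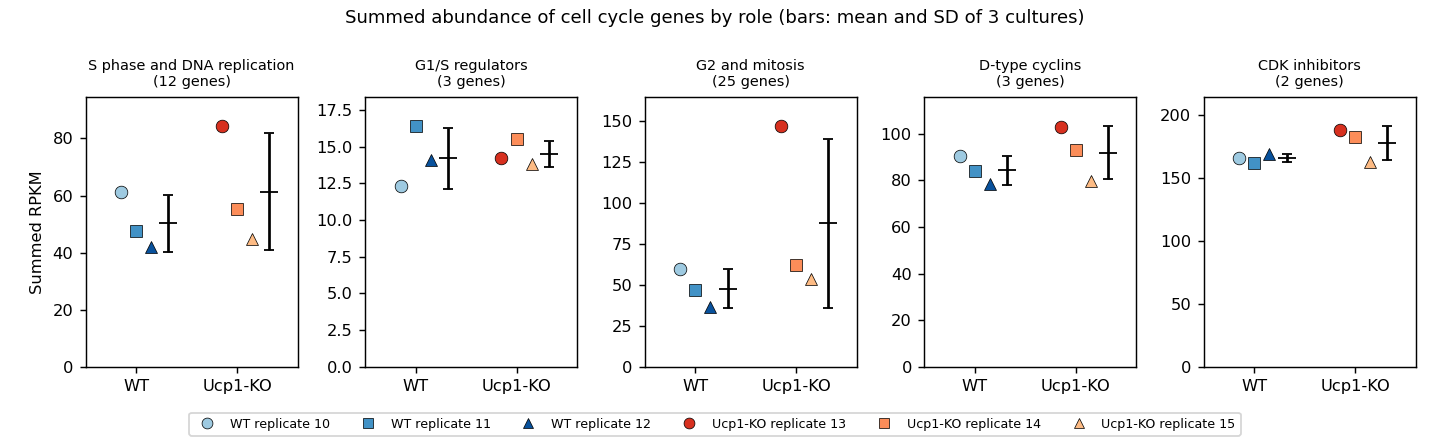
Summed RPKM of the cell cycle genes in each culture, 1 panel per role and each y axis starting at 0. Symbols are cultures, and the bars beside them give the mean and SD of the 3 cultures of a genotype. Ucp1-KO replicate 13 reached 147 RPKM in the mitotic genes against 36.3 to 62.4 RPKM in the other 5 cultures, while the sums of the G1/S regulators lay between 12.3 and 16.4 RPKM in all 6.

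Genes of G2 and mitosis differed most between cultures. Their sum was 59.9, 46.8 and 36.3 RPKM in the WT cultures and 147, 62.4 and 53.8 RPKM in the Ucp1-KO cultures. Ucp1-KO replicate 13 thus held 3.09 times the WT mean and 2.36 times the next highest culture, whereas the other 2 Ucp1-KO cultures fell close to WT replicate 10. The WT mean was 47.7 ± 11.8 RPKM and the Ucp1-KO mean 87.7 ± 51.5 RPKM (SD, n = 3 each), and their ratio of 1.84 became 1.22 without Ucp1-KO replicate 13. That culture gave 7873 reads of these 25 genes, against 2019 to 3443 reads in each of the others.

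Each of the 25 mitotic genes had its highest value in Ucp1-KO replicate 13, a culture that was highest for 17.6% of all transcripts tested. It exceeded the next culture by between 1.5-fold for Cenpa and 3.28-fold for Plk1. WT replicate 12 was the lowest culture for 22 of the 25, against 8.65% of all transcripts, and WT replicate 11 for the other 3.

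Mki67, the gene of the proliferation antigen Ki-67, was at 3.24, 1.61 and 1.51 RPKM in the WT cultures and at 8.38, 3.15 and 2.34 RPKM in the Ucp1-KO cultures. Top2a, encoding the topoisomerase that untangles sister chromatids, was at 4.57, 2.77 and 2.40 RPKM in WT and at 11.8, 4.62 and 3.89 RPKM in Ucp1-KO. In both genes WT replicate 10 lay above Ucp1-KO replicates 14 or 15, so the genotypes overlapped. The log2 fold change was 0.74 ± 0.40 (SE, limma, adjusted p = 0.871) for Mki67 and 0.77 ± 0.38 (SE, limma, adjusted p = 0.871) for Top2a, and without Ucp1-KO replicate 13 it was 0.30 and 0.34.

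The mitotic kinases and their partners were also highest in Ucp1-KO replicate 13, while the order of the other cultures differed from gene to gene. Cdk1, the kinase that drives entry into mitosis, was at 3.34, 3.54 and 3.12 RPKM in WT and at 9.03, 4.65 and 3.71 RPKM in Ucp1-KO, without overlap of the genotypes. Plk1, a kinase of spindle assembly and mitotic exit, was at 1.38, 1.01 and 0.947 RPKM in WT and at 5.06, 1.42 and 1.54 RPKM in Ucp1-KO, again without overlap. Ccnb1, encoding cyclin B1, was at 0.759, 0.388 and 0.463 RPKM in WT and at 1.42, 0.601 and 0.490 RPKM in Ucp1-KO, which overlapped. The log2 fold change was 0.57 ± 0.27 for Cdk1, 0.67 ± 0.35 for Plk1 and 0.23 ± 0.21 for Ccnb1 (SE, limma, adjusted p of 0.871, 0.871 and 0.893), and 0.25, 0.24 and 0.015 without Ucp1-KO replicate 13. Ccnb2, Ccna2, Aurka, Aurkb and Foxm1, which encode further cyclins, the Aurora kinases and a transcription factor of mitotic genes, overlapped between the genotypes, with ratios of the means between 1.52 and 2.24 that fell to between 1.07 and 1.33 without that culture.

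Among the genes of kinetochore and spindle, Cenpa, the histone variant that marks centromeres, differed most evenly. It was at 2.85, 3.18 and 2.57 RPKM in WT and at 6.44, 4.30 and 3.89 RPKM in Ucp1-KO, so that all Ucp1-KO cultures lay above all WT cultures. Its log2 fold change was 0.58 ± 0.17 (SE, limma, unadjusted p = 0.0131, adjusted p = 0.868), and 0.40 without Ucp1-KO replicate 13. Cenpf, a large protein of the outer kinetochore, was at 0.589, 0.345 and 0.243 RPKM in WT and at 2.09, 0.693 and 0.707 RPKM in Ucp1-KO, which did not overlap. Its log2 fold change was 0.58 ± 0.26 (SE, limma, adjusted p = 0.868), and 0.30 without Ucp1-KO replicate 13. Its ratio of the means, 2.97, was the highest of the 45 genes, and it was 1.78 without that culture.

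Bub1, a kinase of the spindle checkpoint, was at 0.852, 0.456 and 0.325 RPKM in WT and at 1.91, 1.0 and 0.800 RPKM in Ucp1-KO. WT replicate 10 lay above Ucp1-KO replicate 15, and the log2 fold change was 0.52 ± 0.22 (SE, limma, adjusted p = 0.868), or 0.31 without Ucp1-KO replicate 13. Kif11, the motor that separates the spindle poles, and Nusap1, a protein that binds spindle microtubules, had log2 fold changes of 0.53 ± 0.28 and 0.49 ± 0.24 (SE, limma, adjusted p = 0.871 for both) with overlap of the genotypes, and of 0.25 and 0.26 without that culture. Birc5, the survivin of the chromosomal passenger complex, was at 3.56, 3.58 and 1.86 RPKM in WT and at 8.92, 4.18 and 2.68 RPKM in Ucp1-KO, with a log2 fold change of 0.55 ± 0.38 (SE, limma, adjusted p = 0.876) that fell to 0.16 without it. The remaining genes of this group, Bub1b, Cdc20, Kif23, Kif20a, Cenpe, Ube2c, Tpx2, Prc1 and Cdca8, overlapped between the genotypes, with ratios of the means from 1.36 for Kif20a to 2.41 for Cdc20 and from 1.04 to 1.33 without Ucp1-KO replicate 13.

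**Figure D2:**
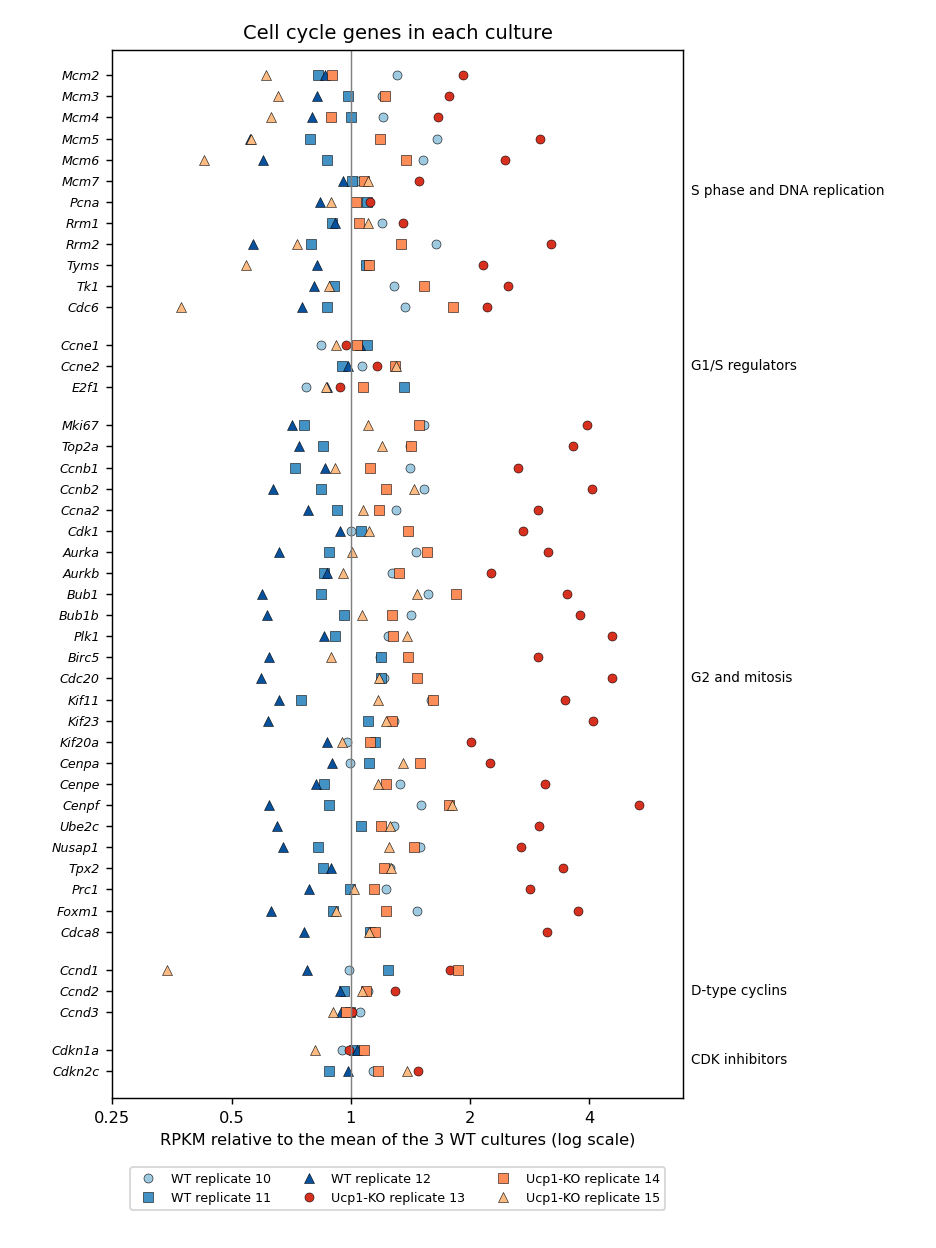
RPKM of each of the 45 genes in each culture, divided by the mean of the 3 WT cultures, on a log scale (x axis), with genes in rows grouped by role. Each symbol is a culture, blue for WT and red to orange for Ucp1-KO. The red circles of Ucp1-KO replicate 13 lie farthest right in all 25 mitotic rows, up to 3.28 times the next culture for Plk1, and the G1/S regulators and Ccnd3 show no such shift.

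Promoters of the mitotic genes shared sequence features that the list did not use. RefSeq start sites on GRCm38.p6 gave a window of 250 bases before and 50 bases after the start for 36 of the 45 genes. Ccna2, Aurkb, Mcm4, Ccne2, Kif20a, Tpx2, Foxm1, Ccnd1 and Ccnd2 had no entry. The windows were searched on both strands for the CCAAT box (CCAAT, bound by NF-Y), for the cell cycle homology region or CHR (TTTGAA or TTTAAA, bound by the MuvB complex) and for an E2F site (TTTCCCGC, TTTGGCGC, TTTCGCGC or TTTGCCGC). In the windows of the 45 genes, matches of different motifs overlapped in 2 cases. A match describes letters in this window and not a bound site.

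A CHR was found in 18 of the 20 mitotic genes with a window (90.0%), against 22.0% of the 9140 tested genes with a window and 30.6% of all 27025 genes with a window. A CCAAT box was found in 18 of the 20 (90.0%), against 43.1% of the tested genes. Both were present in 17 (85.0%), against 9.06% of the tested genes. An E2F site was found in 5 of the 11 S-phase genes (45.5%), namely Cdc6, Mcm3, Mcm5, Mcm6 and Mcm7, against 4.73% of the tested genes, and in 1 of the 20 mitotic genes, Cdk1. The windows of E2f1 and Cdkn1a held none of these motifs. That of E2f1 lies inside the gene as listed, whose 5′ end is at position 154569892 of chromosome 2. The sequence before that end was not searched, so nothing is said here of motifs there.

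The following 6 promoters are shown from 120 bases before to 30 bases into the transcript, 5′ to 3′ on the strand of the gene, with the 3 motifs in capitals on either strand (ATTGG is CCAAT on the other strand). Ccnb2, Cdk1, Cenpa and Plk1 stand for the mitotic genes that were highest in Ucp1-KO replicate 13, and Mcm6 for the S-phase genes with E2F sites. E2f1 stands for a window without a match, which lies inside the listed gene. They lie at chr9:70421525-70421674 (minus strand), chr10:69352883-69353032 (minus), chr5:30666766-30666915 (plus), chr7:122159315-122159464 (plus), chr1:128359676-128359825 (minus) and chr2:154569397-154569546 (minus).
Ccnb2: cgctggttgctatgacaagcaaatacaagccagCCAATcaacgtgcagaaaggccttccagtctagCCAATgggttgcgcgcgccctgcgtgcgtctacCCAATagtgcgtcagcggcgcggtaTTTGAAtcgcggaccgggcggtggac
Cdk1: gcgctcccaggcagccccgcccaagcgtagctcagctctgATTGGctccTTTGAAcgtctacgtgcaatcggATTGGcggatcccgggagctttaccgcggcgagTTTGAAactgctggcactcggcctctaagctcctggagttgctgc
Cenpa: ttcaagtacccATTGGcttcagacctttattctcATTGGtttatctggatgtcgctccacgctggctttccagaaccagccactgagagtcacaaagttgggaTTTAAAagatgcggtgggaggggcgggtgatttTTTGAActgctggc
Plk1: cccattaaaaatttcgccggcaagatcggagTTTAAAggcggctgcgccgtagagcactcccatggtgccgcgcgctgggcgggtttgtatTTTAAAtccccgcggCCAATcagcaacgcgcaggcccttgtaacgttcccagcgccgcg
Mcm6: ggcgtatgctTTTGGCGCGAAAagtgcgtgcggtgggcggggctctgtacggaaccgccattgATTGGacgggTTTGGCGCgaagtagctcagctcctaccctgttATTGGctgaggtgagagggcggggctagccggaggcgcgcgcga
E2f1: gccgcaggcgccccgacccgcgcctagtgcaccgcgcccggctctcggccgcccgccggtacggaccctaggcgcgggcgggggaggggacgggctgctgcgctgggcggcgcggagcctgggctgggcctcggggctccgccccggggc

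Genes of S phase and DNA replication showed the same high culture, but not the same order of the others. Their sum was 61.4, 47.5 and 42.1 RPKM in WT and 84.3, 55.3 and 44.7 RPKM in Ucp1-KO. The ratio of the means was 1.22, and it was 0.994 without Ucp1-KO replicate 13. That culture was highest for all 11 S-phase genes tested, against 17.6% of all transcripts tested. Ucp1-KO replicate 15 was the lowest for 5 of them, as WT replicate 12 was for another 5. These cultures were lowest for 26.5% and 8.65% of all transcripts tested. Ucp1-KO replicate 15 was not the lowest for any of the 25 mitotic genes, and among the S-phase genes it was the next below replicate 13 for Mcm7.

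Mcm2 to Mcm7 encode the 6 subunits of the helicase that unwinds DNA for replication. Mcm5 was at 2.64, 1.26 and 0.890 RPKM in WT and at 4.81, 1.90 and 0.897 RPKM in Ucp1-KO, and Mcm6 at 3.45, 1.98 and 1.36 RPKM in WT and at 5.55, 3.12 and 0.966 RPKM in Ucp1-KO. Both genes overlapped between the genotypes, and apart from Ucp1-KO replicate 13 the highest culture was WT replicate 10. The log2 fold change was 0.35 ± 0.43 for Mcm5 and 0.065 ± 0.30 for Mcm2 (SE, limma, adjusted p of 0.915 and 0.979), and both turned negative without Ucp1-KO replicate 13, at -0.090 and -0.26. Over Mcm2, Mcm3, Mcm4, Mcm5 and Mcm6, the ratio of the means lay between 1.06 and 1.59, and between 0.754 and 0.936 without that culture. Mcm7 was the exception, with all Ucp1-KO cultures above all WT cultures and a ratio of 1.22, or 1.09 without Ucp1-KO replicate 13. Its exons overlap those of Ap4m1 and Cops6 on the other strand, and no source used here says that reads were counted by strand.

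The enzymes that make nucleotides were also highest in Ucp1-KO replicate 13, by differing margins. Rrm2, the small subunit of ribonucleotide reductase, was at 5.0, 2.42 and 1.73 RPKM in WT and at 9.74, 4.07 and 2.23 RPKM in Ucp1-KO. Rrm1, its partner, was at 20.6, 15.4 and 15.7 RPKM in WT and at 23.3, 18.0 and 19.0 RPKM in Ucp1-KO. Ucp1-KO replicate 13 thus exceeded the next culture 1.95-fold in Rrm2 and 1.14-fold in Rrm1. The log2 fold change of Rrm2 was 0.55 ± 0.47 (SE, limma, adjusted p = 0.891), and 0.082 without this culture. Tyms, the thymidylate synthase, and Pcna had log2 fold changes of 0.12 ± 0.25 and 0.018 ± 0.13 (SE, limma, adjusted p of 0.952 and 0.989), which became -0.14 and -0.048. The transcript used for Tyms is one that RefSeq lists as non-coding. Tk1, the thymidine kinase of dividing cells, was at 2.35, 1.66 and 1.48 RPKM in WT and at 4.57, 2.80 and 1.61 RPKM in Ucp1-KO, which overlapped, with a ratio of the means of 1.63, or 1.2 without Ucp1-KO replicate 13. Pcna lay between 7.07 and 9.44 RPKM in all 6 cultures.

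The share of replication genes relative to mitotic genes differed between cultures as well. The summed S-phase RPKM divided by the summed mitotic RPKM was 1.03, 1.02 and 1.16 in the WT cultures and 0.573, 0.887 and 0.831 in the Ucp1-KO cultures. All 3 Ucp1-KO cultures lay below all WT cultures in this ratio, which was chosen after the values were seen. It is given as a description without a test, and 11.2% of the single transcripts tested had genotypes that did not overlap in either direction. The lists of other replication and other mitotic genes described below did not repeat this order. They summed to 117 and 97.9 RPKM in Ucp1-KO replicate 15, against 108 and 103 RPKM in WT replicate 10. There the ratio was thus higher in Ucp1-KO replicate 15 than in WT replicate 10.

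The regulators of the G1/S passage did not share the high culture. Ccne1, encoding cyclin E1, was at 6.35, 8.30 and 7.96 RPKM in WT and at 7.34, 7.80 and 6.92 RPKM in Ucp1-KO. E2f1, the E2F factor that drives replication genes, was at 3.26, 5.75 and 3.69 RPKM in WT and at 3.98, 4.55 and 3.66 RPKM in Ucp1-KO. Both were highest in WT replicate 11 and lowest in WT replicate 10, with log2 fold changes of -0.025 ± 0.12 and -0.022 ± 0.19 (SE, limma, adjusted p of 0.981 and 0.990), and of -0.024 and -0.012 without Ucp1-KO replicate 13. Ccne2, encoding cyclin E2, was at 2.64, 2.35 and 2.43 RPKM in WT and at 2.88, 3.20 and 3.21 RPKM in Ucp1-KO. Its genotypes did not overlap and its highest culture was Ucp1-KO replicate 15, with a log2 fold change of 0.24 ± 0.10 (SE, limma, adjusted p = 0.868) and of 0.28 without Ucp1-KO replicate 13.

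D-type cyclins couple growth signals to the cycle, and the 3 genes behaved differently. Ccnd2 was at 49.3, 42.9 and 42.0 RPKM in WT and at 57.9, 48.8 and 47.7 RPKM in Ucp1-KO, and Ccnd3 lay between 30 and 35.1 RPKM in all cultures. Their log2 fold changes were 0.20 ± 0.11 and -0.054 ± 0.088 (SE, limma, adjusted p of 0.876 and 0.938), and 0.11 and -0.089 without Ucp1-KO replicate 13. Ccnd1 was at 6.17, 7.72 and 4.83 RPKM in WT and at 11.1, 11.6 and 2.14 RPKM in Ucp1-KO, so that the highest and the lowest cultures were both Ucp1-KO. Its log2 fold change was 0.13 ± 0.53 (SE, limma, adjusted p = 0.976), -0.18 without Ucp1-KO replicate 13 and 0.79 without Ucp1-KO replicate 15.

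Of the CDK inhibitors, Cdkn2c was higher in every Ucp1-KO culture. It was at 55.5, 43.0 and 48.1 RPKM in WT and at 72.2, 57.4 and 67.7 RPKM in Ucp1-KO, and the means of 48.9 ± 6.28 and 65.8 ± 7.60 RPKM (SD, n = 3 each) gave a ratio of 1.35, or 1.28 without Ucp1-KO replicate 13. Its log2 fold change was 0.42 ± 0.13 (SE, limma, unadjusted p = 0.0151, adjusted p = 0.868), and 0.35 without that culture. Cdkn1a was at 111, 119 and 121 RPKM in WT and at 116, 126 and 95.1 RPKM in Ucp1-KO, with overlap and a log2 fold change of -0.066 ± 0.12 (SE, limma, adjusted p = 0.947), or -0.093 without that culture.

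**Figure D3:**
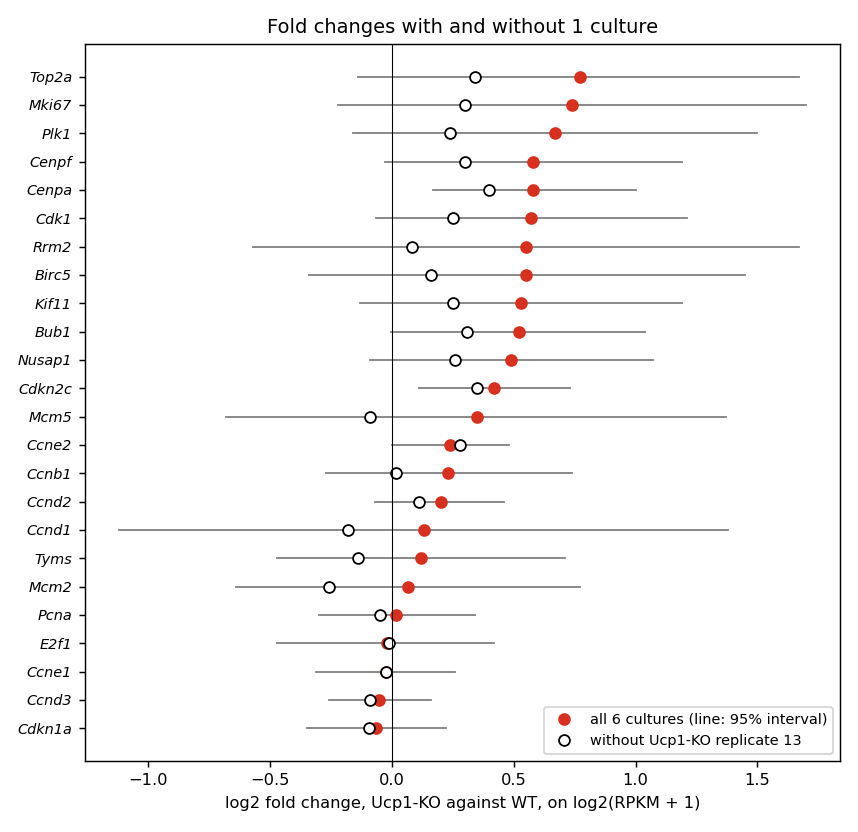
Log2 fold change between Ucp1-KO and WT on log2(RPKM + 1) (x axis) for 24 of the cell cycle genes (rows). Filled circles with lines give the estimate and 95% interval of limma over all 6 cultures, and open circles the estimate without Ucp1-KO replicate 13. The interval lies above 0 for Cenpa and Cdkn2c, and the open circles of the mitotic genes lie to the left of the filled ones, for example 0.34 against 0.77 for Top2a.

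Across the 44 genes tested, 0 passed an adjusted p of 0.05 in limma, and neither did any of the 16865 transcripts (0%), with a smallest adjusted p of 0.868 in both. The deleted gene Ucp1 was missed as well. Its log2 fold change was -1.78 ± 0.24 (SE, limma, unadjusted p = 1.57e-04, adjusted p = 0.868), and -1.64 without Ucp1-KO replicate 13. The study's own count test did report Ucp1 as differential. The 0 calls therefore do not show that a transcript was unchanged. At an unadjusted p under 0.05, limma placed 2 of the 44 genes higher in Ucp1-KO, Cenpa and Cdkn2c, and 0 lower, where 2.30% and 3.24% of all transcripts, 5.54% together, were higher and lower. Limma-voom on the recovered reads called 0 genes after adjustment and placed 4 higher at an unadjusted p under 0.05, Bub1, Cdkn2c, Cenpa and Cenpf, against 2.18% of all transcripts. In 7 genes all Ucp1-KO cultures lay above all WT cultures (Mcm7, Ccne2, Cdk1, Plk1, Cenpa, Cenpf and Cdkn2c) and in 0 below, where 6.04% and 5.15% of all transcripts did so. With 3 cultures per genotype, an exact two-sided permutation test of a single gene cannot go below p = 0.1.

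The direction leaned to Ucp1-KO in most genes, and its size was smaller without the high culture. The log2 fold change was above 0 in 40 of 44 genes, against 49.6% of all transcripts, with a median of 0.45 against 0.00 over all transcripts. Without Ucp1-KO replicate 13 it was above 0 in 32 of 44, against 54.1% of all transcripts, with a median of 0.12 against 0.020. Cenpa and Cdkn2c again were the genes with an unadjusted p under 0.05 in limma without this culture, 2 of 44 against 3.88% of all transcripts that were higher in Ucp1-KO. For the 25 mitotic genes the median went from 0.55 to 0.24 and all 25 stayed above 0, while for the 11 S-phase genes it went from 0.22 to -0.090 and 4 of 11 stayed above 0. Without Ucp1-KO replicate 15 instead, the median over the 44 genes was 0.68 and 14 genes had an unadjusted p under 0.05 in limma, all higher in Ucp1-KO, against 3.12% of all transcripts.

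The spread between Ucp1-KO cultures was wide for these genes. Their median SD within Ucp1-KO was 0.56 on the log2(RPKM + 1) scale, against 0.17 over all transcripts, and within WT it was 0.22 against 0.14. The SD was larger within Ucp1-KO than within WT in 39 of the 44 genes and in all 25 mitotic genes, whose median SD within Ucp1-KO was 0.63. In the G1/S regulators it was 0.076. Ucp1-KO replicate 13 was the highest culture for 38 of the 44 genes and WT replicate 12 the lowest for 28, against 17.6% and 8.65% of all transcripts.

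Further genes of the cycle that are not among the 45 were taken from lists by function. Since the minimum abundance can be passed through a single high culture, these lists were counted over every gene with a RefSeq row, a choice made after seeing the data. Of the 48 other mitotic genes, 40 passed the minimum, 4 of them only through Ucp1-KO replicate 13. That culture was the highest for 45 of the 48, against 18.6% of the 23421 RefSeq transcripts with 1 highest culture, and for 35 of the 36 that passed the minimum in the other 5 cultures. The median log2 fold change of the 48 was 0.34, and it was 0.11 without this culture. The 48 genes summed to 103, 99.3 and 87.1 RPKM in WT and to 189, 107 and 97.9 RPKM in Ucp1-KO, which overlapped. In 10 of the 48 all Ucp1-KO cultures lay above all WT cultures, against 4.44% of all 28890 transcripts, and 0 of the 40 tested passed adjustment in limma. Anln, a scaffold of the cleavage furrow, was at 1.83, 2.12 and 1.83 RPKM in WT and at 5.60, 2.72 and 2.76 RPKM in Ucp1-KO. Of the 30 other replication genes, 28 passed the minimum, 2 of them only through Ucp1-KO replicate 13. That culture was the highest for 21 of the 30, and for 17 of the 26 that passed in the other 5 cultures, with a median log2 fold change of 0.17 over the 30 and of 0.046 without it. Their sum was 108, 103 and 99.8 RPKM in WT and 136, 119 and 117 RPKM in Ucp1-KO, so that all Ucp1-KO cultures lay above all WT cultures. In this list 7 genes did not overlap, all higher in Ucp1-KO, against 4.44% of all transcripts, and 0 of the 28 tested passed adjustment in limma. Ucp1-KO replicate 15 was the highest culture for 6 of the 30, near its share of 21.9% of all transcripts. Gmnn, encoding geminin, the inhibitor of repeated licensing, was at 20.9, 18.7 and 20 RPKM in WT and at 21.8, 27.3 and 28.5 RPKM in Ucp1-KO, without overlap and with its highest value in another culture.

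The upstream regulators were spread over more cultures. Of 24 G1 kinases, pocket proteins and E2F factors, 8 were highest in Ucp1-KO replicate 13, against 18.6% of all transcripts, and 5 of the 21 that passed the minimum were. The median log2 fold change of the 24 was 0.044, or 0.045 without it. Of 15 other CDK inhibitors and p53 targets, 2 were highest in that culture and 9 had log2 fold changes below 0, against 50.4% of all transcripts, while 0 passed adjustment in limma. Their median was -0.13 and became 0.10 without that culture, with 10 of 15 above 0 against 54.1% of all transcripts. Cdkn2b, encoding the inhibitor p15, was at 31.8, 23.9 and 25.4 RPKM in WT and at 19.6, 18.2 and 20.3 RPKM in Ucp1-KO, the opposite direction to Cdkn2c, with a log2 fold change of -0.45 ± 0.12 (SE, limma, unadjusted p = 0.00825, adjusted p = 0.868) and of -0.46 without Ucp1-KO replicate 13. Cdkn1c, encoding p57, was at 2.37, 1.54 and 1.98 RPKM in WT and at 2.57, 2.93 and 4.73 RPKM in Ucp1-KO, with a log2 fold change of 0.55 ± 0.21 (SE, limma, adjusted p = 0.868) and of 0.69 without it. Neither inhibitor overlapped between the genotypes, while Cdkn1b, Cdkn2a and Cdkn2d of the same list did. All 15 genes were tested. Without overlap, 2 of them were higher in Ucp1-KO and 1 lower, against 6.04% and 5.15% of all transcripts tested.

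**Figure D4:**
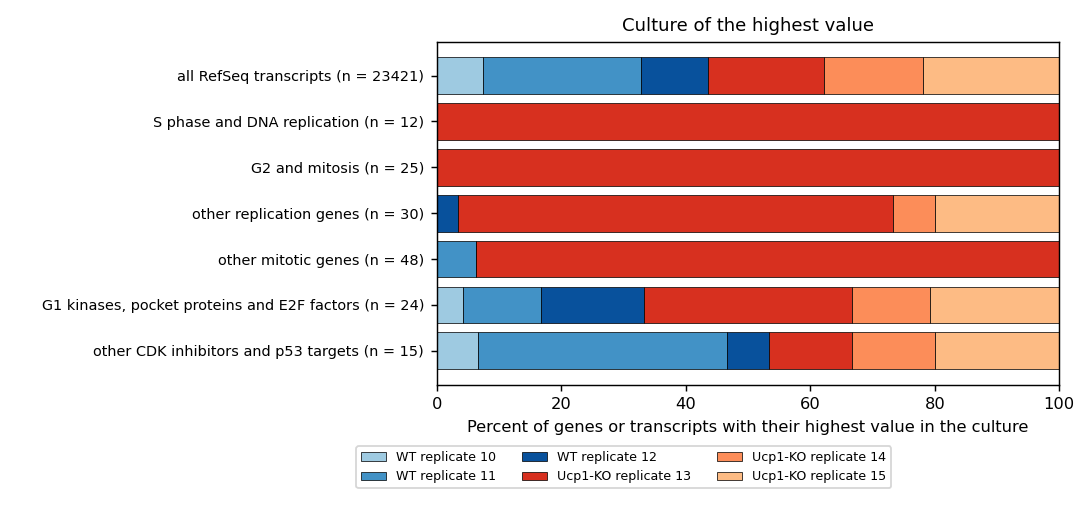
Percent of genes (x axis) whose highest value fell in each of the 6 cultures, shown by color, for the RefSeq transcripts with 1 highest culture and for lists of cell cycle genes (rows, n in brackets, no minimum abundance). Ucp1-KO replicate 13 takes 100% of the 12 S-phase and 25 mitotic genes, 93.8% of the other mitotic genes and 70.0% of the other replication genes, against 18.6% of all transcripts.

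Other cell types of the tissue were traced by their markers. The 11 markers of preadipocytes and stroma summed to 743, 1699 and 1027 RPKM in WT and to 1003, 923 and 629 RPKM in Ucp1-KO, with Dlk1, Dpp4 and Pi16 under 0.5 RPKM on average over the 6 cultures. The 9 macrophage markers found summed to 76.3, 252 and 143 RPKM in WT and to 205, 1037 and 46.9 RPKM in Ucp1-KO, with the peak in Ucp1-KO replicate 14. Mural cell markers summed to 199, 138 and 118 RPKM in WT and to 162, 53.1 and 36.0 RPKM in Ucp1-KO. Ucp1-KO replicate 13 was not the highest culture in any of these sums, nor in those of endothelium (2.49 to 33.8 RPKM) and Schwann cells (7.39 to 11.1 RPKM), and 0 genes of the stromal, macrophage, endothelial and mural lists were highest there.

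Skeletal muscle markers did peak in Ucp1-KO replicate 13. The 8 genes summed to 6.31, 2.57 and 3.03 RPKM in WT and to 11.2, 2.39 and 6.19 RPKM in Ucp1-KO, and 4 of the 8 were highest in replicate 13. Acta1 carried the sums, with 8.90 RPKM in replicate 13 and 2.19 to 5.60 RPKM in the other cultures. Myog was at 1.21 RPKM in replicate 13 and at 0 to 0.766 RPKM elsewhere. Pax7 and Myf5 of this list were at 0 in all cultures, and 7 of the 8 genes were under 0.5 RPKM on average. The 7 brown adipocyte markers other than Ucp1, of which Fabp4 made up most, summed to 30128 RPKM in the same culture, within 29622 to 33401 RPKM over all 6, and 3 of all 8 markers were highest there. Ucp1-KO replicate 15, the lowest culture for Ccnd1, also had the lowest stromal, macrophage and mural sums. The part of other cell types in the cell cycle values was not tested.

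**Figure D5:**
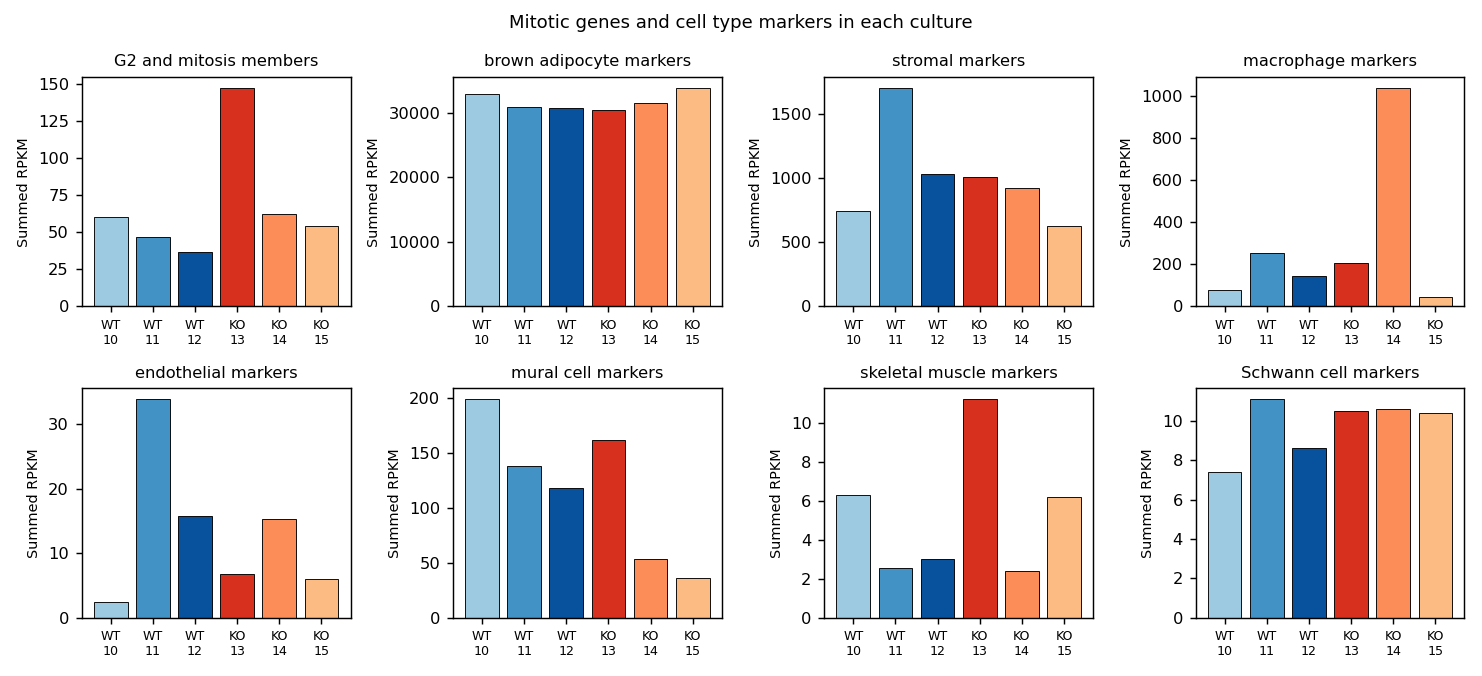
Summed RPKM of the 25 mitotic genes and of markers of 7 cell types in each culture (bars, y axes from 0, blue for WT and red to orange for Ucp1-KO, KO standing for Ucp1-KO). The mitotic sum peaks in Ucp1-KO replicate 13 at 147 RPKM, the macrophage sum in Ucp1-KO replicate 14 at 1037 RPKM, and the skeletal muscle sum in Ucp1-KO replicate 13 at 11.2 RPKM.

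Some values may hold reads of other genes. Exons of 15 of the 45 genes overlap an exon on the opposite strand, for example Ccna2 with Exosc9, Cdc20 with Elovl1, Nusap1 with Oip5, Plk1 with Gm44985 and Ccne2 with Ints8. The others are Mcm7, Tk1, Kif20a, Ube2c, Prc1, Cdca8, Ccnd1, Ccnd2, Ccnd3 and Cdkn1a, and reads of such partners cannot be told apart without strand. Ccnb1, Ccnb2, Pcna, Tyms and Ccnd3 have an annotated pseudogene copy, with which the counting could have shared reads.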

How the data were processed

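RNA of 6 cultures, 3 WT and 3 Ucp1-KO, was sequenced as 50-base single reads. With Genomatix software the authors aligned these to mouse build 38, took uniquely placed reads per known transcript and deposited RPKM values, scaled to transcript length and mapped reads. The submitters' processing notes also name CASAVA and bcl2fastq. Each value column carried the name of a culture. Values of a rare transcript are coarse, since each is a whole number of reads, and uniquely assigned reads may undercount genes with close copies.

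Of 168326 rows, the 28890 RefSeq transcripts were used. Those with a mean of at least 0.5 RPKM (16865 transcripts of 12259 genes) entered limma 3.58.1 (R 4.3.3) on log2(RPKM + 1), with moderated variances that followed the mean abundance and no covariate, at a Benjamini-Hochberg adjusted p of 0.05. The authors used a count test, and the deposited unit called for another. Totals behind the RPKM were computed from Ensembl transcripts with lengths of GENCODE M21, about 93% of whose values were within 0.02 of a whole read, and then gave whole reads for all 16865 transcripts, which limma-voom used as an alternative. Counts of other cell cycle genes by highest culture, added after seeing the data, used every gene with a RefSeq row. Other alternatives were a constant of 0.1, no minimum, 1 transcript per gene, median-of-ratios scaling and leaving out each culture. The totals lay between 14989604 and 17727653 reads, and the 44 cell cycle genes tested had 15 or more reads in every culture. Counting error was not set against the spread between cultures. The floor on reads covers counting error only, and limma's intervals rest on the spread between cultures. Nothing says that cultures of a genotype came from separate mice, so p-values measure the spread between these cultures.

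The scripts were tested on simulated data. Fold changes with errors are given for 18 landmark genes, for the 6 others with the smallest unadjusted p and for Ucp1. They are also given for 2 examples of another list (Cdkn2b and Cdkn1c), and values per culture for any of the 45. The genes, lists, roles and tests were chosen with earlier results of these data known, and the examples among the other cell cycle genes and the ratio of S-phase to mitotic sums after their values were seen. Promoters are from RefSeq. Python 3.11.15 with numpy 2.4.6, pandas 2.3.3 and matplotlib 3.10.9 did the other calculations.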

Additional observations from a re-analysis of the deposited data

How the results depend on the processing

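None of the 44 genes tested passed the adjusted threshold in limma in any alternative, with smallest adjusted p-values between 0.406 and 0.999. Over all transcripts, limma called 22 with no minimum abundance and 0 in the other alternatives, and none of the 22 is a cell cycle gene. Without D-type cyclins and CDK inhibitors, the ratio of the summed RPKM was 1.46 in place of 1.2. Leaving out single cultures moved the ratio of all 45 genes, 1.2, between 1.06 and 1.31 and the genes' median log2 fold change between 0.12 (without Ucp1-KO replicate 13) and 0.68 (without Ucp1-KO replicate 15). Of the 24 genes among the 45 whose fold change is given with an error, 16 kept their sign in all 11 alternatives and 8 changed it when a culture was left out. Their log2 fold changes then ranged from -0.26 to 0.31 for Mcm2, -0.090 to 0.72 for Mcm5, -0.092 to 0.098 for Pcna, -0.14 to 0.36 for Tyms, -0.13 to 0.041 for Ccne1, -0.16 to 0.18 for E2f1, -0.21 to 0.79 for Ccnd1 and -0.15 to 0.048 for Cdkn1a. The cause was not tested. Cdkn2b and Cdkn1c, of another list and added after seeing the data, kept their sign in the same 11 alternatives, between -0.53 and -0.33 and between 0.35 and 0.75. The constant of 0.1 RPKM and limma-voom gave larger log2 fold changes of rare genes, at 1.25 and 1.46 in place of 0.58 for Cenpf, 1.05 and 1.2 in place of 0.52 for Bub1, 0.93 and 1.03 in place of 0.53 for Kif11 and 0.47 and 0.53 in place of 0.23 for Ccnb1. At an unadjusted p under 0.05, between 1 and 14 genes were higher in Ucp1-KO over the alternatives and 0 were lower. There were 14 of 44 without Ucp1-KO replicate 15, against 3.12% of all transcripts, 5 without WT replicate 10 or Ucp1-KO replicate 14, against 2.96% and 1.47%, and 1 without WT replicate 11, against 0.978%. No paired analysis was possible because the genotypes share no replicate numbers. Depth limits rare genes such as Cdc6, with 5 to 32 reads per culture, and Ccnb1, with 15 to 53.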
